A study of Mus musculus with 2 samples.

Results

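The chemokine system of the arthritic synovium was read from 61 genes out of the 32524 listed for the experiment. They were chosen by symbol alone, as every gene named Ccl, Cxcl, Xcl, Ccr, Cxcr, Xcr, Cx3cl, Cx3cr or Ackr followed by a number. The set held 38 ligands, 19 signalling receptors and 4 atypical receptors. The rule used no measured value, though it was set with earlier results of these data known. The cells came from wild-type C57BL/6 mice, 7 to 10 weeks old at the start, given 1 injection of β-glucan or of PBS (PBS-control) 7 days before arthritis was induced. β-glucan is a fungal cell wall polysaccharide used to induce trained innate immunity, and which of the preparations in the methods was used for these cells is not given in the sources used here. Synovial cells carrying CD45 and CD11b were sorted at day 17 of arthritis and sequenced as 1 droplet-based 3′ library per group, each from 4 mice pooled. Both groups shared the arthritis, which the labels describe as antibody-induced with lipopolysaccharide and the methods as K/BxN serum transfer. No label ties a cell to its mouse, so each group is 1 sample. Every comparison of the groups is therefore a description of 2 libraries that has no replicate check and gives no p-value.

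Chemokines are small secreted proteins that attract leukocytes along gradients by binding G protein-coupled receptors on their surface. Inflammatory chemokines such as CCL2 or CXCL2 are induced at sites of injury and recruit monocytes through CCR2 or neutrophils through CXCR2, whereas homeostatic chemokines such as CXCL12 and CCL19 are made by stromal cells and position leukocytes within tissue. Atypical receptors bind chemokines without G protein signalling and remove or transport them. In inflamed joints, these factors are known for bringing in monocytes, which can mature into macrophages and osteoclasts.

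Several of these genes lie side by side on a chromosome. The promoters of *Cxcl1*, *Cxcl2* and *Cxcl3*, genes for neutrophil-attracting CXCR2 ligands in the same group on chromosome 5, are shown. *Cxcl1* and *Cxcl2* were chosen because the few cells with *Cxcl1* UMIs mostly also had *Cxcl2* UMIs, as given further on. *Cxcl3* was added as a neighbouring CXCR2 ligand gene, and its detection together with them was not computed. Each window runs from 250 bases before to 50 after the transcription start in RefSeq on GRCm38.p6, on the plus strand, at chr5:90890995-90891294 for *Cxcl1*, chr5:90903649-90903948 for *Cxcl2* and chr5:90785851-90786150 for *Cxcl3*. Capitals mark the 10 bases GGGAATTTCC, a match to the NF-κB motif GGGANNNNCC.
Cxcl1: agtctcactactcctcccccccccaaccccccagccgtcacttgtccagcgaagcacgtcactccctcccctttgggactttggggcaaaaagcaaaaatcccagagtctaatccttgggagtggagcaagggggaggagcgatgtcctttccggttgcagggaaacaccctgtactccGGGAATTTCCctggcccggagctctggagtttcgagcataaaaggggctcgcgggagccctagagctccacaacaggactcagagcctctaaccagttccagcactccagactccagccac
Cxcl2: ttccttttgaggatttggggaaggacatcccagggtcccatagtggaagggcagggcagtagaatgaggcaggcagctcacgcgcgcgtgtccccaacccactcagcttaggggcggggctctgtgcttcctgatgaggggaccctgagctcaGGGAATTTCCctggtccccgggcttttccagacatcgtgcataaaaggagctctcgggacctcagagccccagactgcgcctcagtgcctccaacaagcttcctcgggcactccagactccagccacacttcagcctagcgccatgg
Cxcl3: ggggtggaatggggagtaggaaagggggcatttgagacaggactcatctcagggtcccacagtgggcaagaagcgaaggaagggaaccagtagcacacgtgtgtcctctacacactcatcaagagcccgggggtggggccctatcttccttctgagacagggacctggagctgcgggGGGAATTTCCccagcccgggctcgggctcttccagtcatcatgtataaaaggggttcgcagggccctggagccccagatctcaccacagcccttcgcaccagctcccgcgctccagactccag
The match began 71, 97 and 73 bases before the start of *Cxcl1*, *Cxcl2* and *Cxcl3*. These exact 10 bases were picked because *Cxcl1*, *Cxcl2* and *Cxcl3* share them, so the matches in their windows were fixed by that choice. Searched on both strands, the 10 bases stood in 29 of 32851 RefSeq promoter windows (0.0883%). Among these were windows of 4 of the 61 genes, the fourth being *Ccr3*. The looser form GGGANNNNCC stood in 20.7% of all windows and in 22 of the 54 windows found for 47 of the 61 genes. Such a match describes the letters of the window, not a bound site.

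The counts are UMIs (unique molecular identifiers, 1 for each captured transcript), and levels are given in CPM, the counts of a gene per 1000000 UMIs of the cells summed. A 3′ UMI count is not spread along the transcript, so no correction for gene length was made. Barcodes passed with 500 or more genes and no more than 10% of UMIs from mitochondrial genes, 5696 of 7196 barcodes with β-glucan and 4553 of 5760 with PBS, at medians of 12457.5 and 14475 UMIs. The 61 genes took 0.240% of these UMIs with β-glucan and 0.258% with PBS. Clusters were rebuilt without these genes in the principal components, and they were named from marker lists as "-like" cells. Of 19 clusters, 6 were macrophage-like (0, 1, 2, 4, 6 and 10), 3 were like antigen-presenting cells (APCs, 3, 5 and 18) and cluster 9 stayed unnamed. These 10 clusters are called the main myeloid cell compartment and held 4612 cells with β-glucan and 3675 with PBS. The other clusters were neutrophil-like (8), basophil/mast-like (12), B cell-like (7 and 16), T cell-like (11), like cytotoxic lymphocytes (14), proliferating (15), stromal-like (13) and endothelial-like (17). Of these, the B cell-like, T cell-like, cytotoxic lymphocyte-like, stromal-like and endothelial-like clusters lie outside the labelled myeloid type. Proliferating cluster 15 carried APC markers at a summed 19182 CPM with β-glucan and 25721 with PBS. The libraries shared 7 barcodes, 2 of them among kept cells. By its threshold, Scrublet marked only 0 and 2 cells as doublets, where 5.76% and 4.61% were expected. These calls were therefore not relied on, and no cell was removed on that ground. Of B cell-like cluster 16, 42.9% of cells were among those with the highest scores. This cluster also carried macrophage markers at 10621 CPM over both libraries, and whether it holds doublets was not tested.

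Of the 61 genes, 26 reached 5 CPM over all kept cells, 50 had at least 50 UMIs, and 11 had fewer. No UMI of *Ccl20*, *Ccl21b*, *Ccl21d*, *Ccl27b* or *Cxcl15* was seen among kept cells, which allows up to 0.0201 CPM at 3 counts. *Ccl1*, *Ccl26*, *Ccr1l1*, *Cxcl17*, *Cxcl5* and *Cxcr1* had at most 40 UMIs. *Ccl21a*, *Ccl21b* and *Ccl21d*, like *Ccl27a* and *Ccl27b*, are near-identical copies whose reads counting could have divided, so their counts are uncertain. Of the 50 genes with at least 50 UMIs, 36 were highest in the same cluster in both libraries. The myeloid compartment held at least 50% of the UMIs of 30 of them, and 20 had most of their UMIs outside it.

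**Figure D1:**
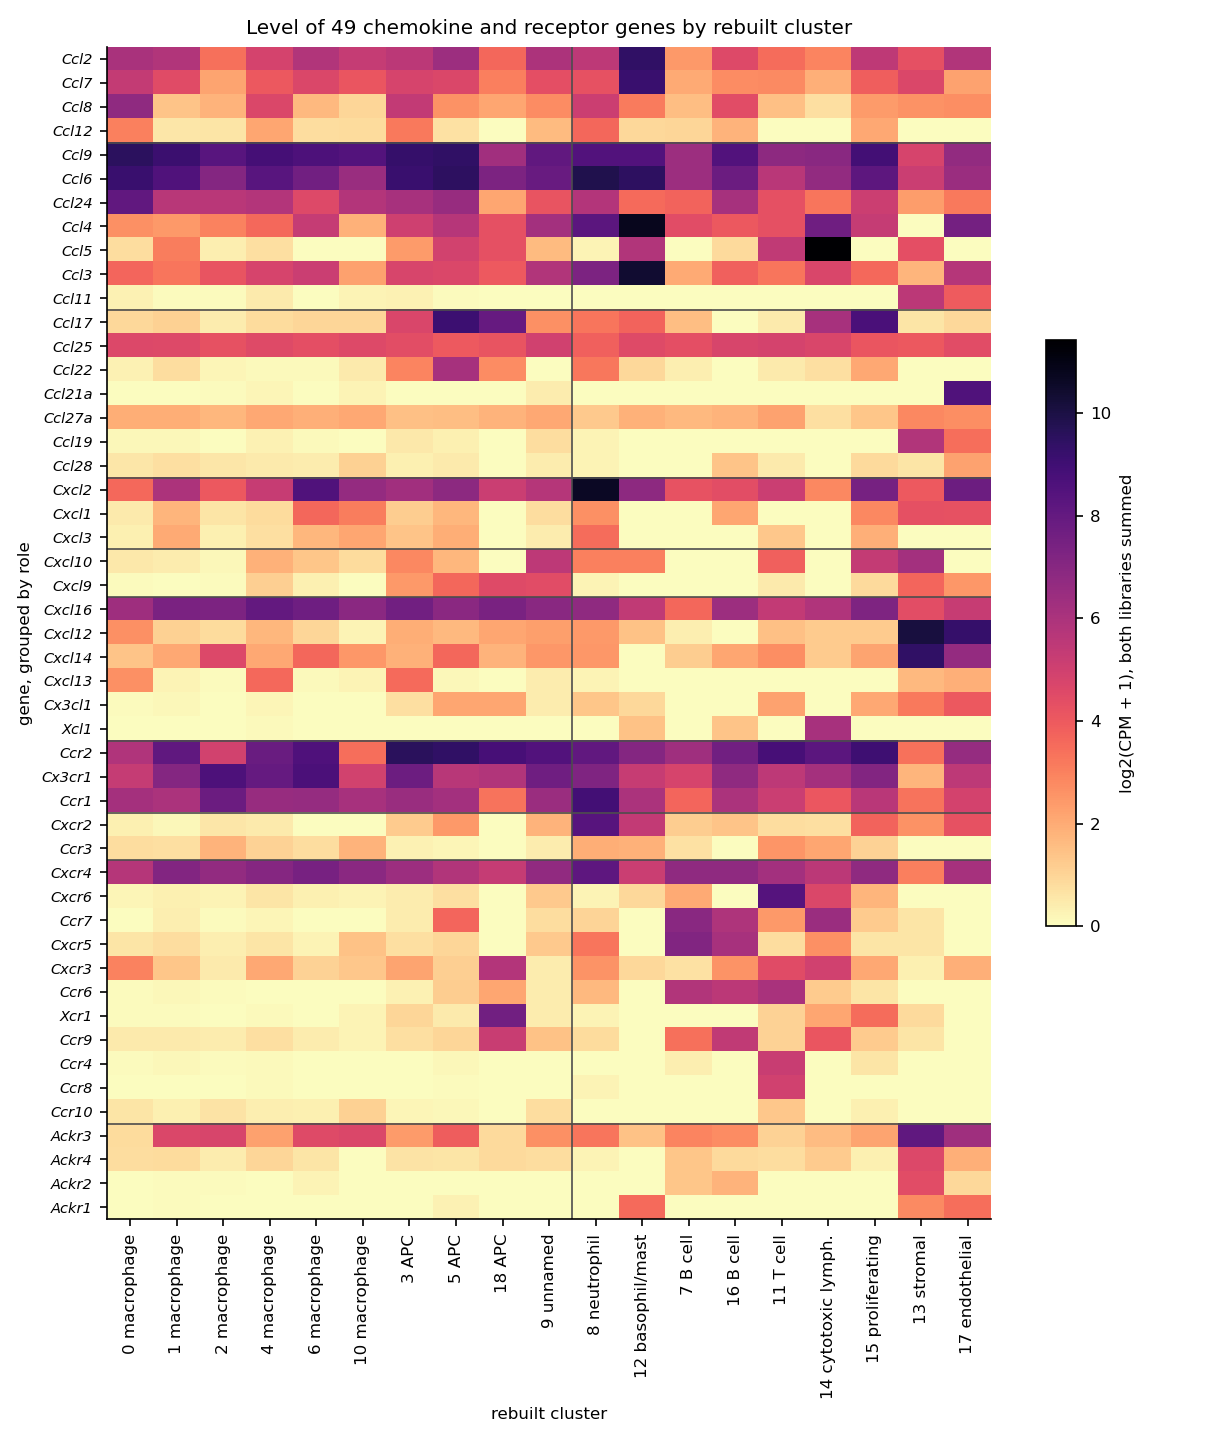
Heat map of 49 genes with at least 50 UMIs (rows, grouped by role, horizontal lines between roles) in the 19 rebuilt clusters (columns, the vertical line separates the 10 clusters of the myeloid compartment on the left), as log2(CPM + 1) over both libraries. *Ccl9* and *Ccl6* were spread over the myeloid clusters, whereas *Ccl5*, *Cxcl12* and *Xcr1* were confined to few columns.

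The receptors of monocytes and macrophages were broadly expressed, each with its own order of clusters. *Ccr2*, the receptor for CCL2 that marks recruited monocytes, was highest in APC-like clusters 3 (788 CPM with β-glucan, 713 with PBS) and 5 (785 and 623). It was lowest within the compartment in macrophage-like cluster 10, at 9.85 CPM over both libraries. *Cx3cr1*, the fractalkine receptor, was highest in macrophage-like cells instead. Its level was 425 CPM with β-glucan against 390 with PBS in cluster 6, and 408 and 373 in cluster 2, which was led by the resident macrophage genes *Vsig4* and *S100b*. *Ccr1*, a receptor for CCL3, CCL6 and CCL9, was highest in neutrophil-like cells at 425 CPM with β-glucan against 587 with PBS, and next in cluster 2 at 228 and 208. After each cell was thinned to 3000 UMIs, *Ccr2* was seen in 71.9% and 66.6% of cells of cluster 3, against 1.89% and 1.37% of stromal-like cells, which should lack it and were deeper (medians of 17689 and 20874 UMIs against 12082 and 13641). Without thinning, *Ccr2* was seen in 86.8% of cells of cluster 3 and 6.15% of stromal-like cells over both libraries.

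The most abundant ligands were *Ccl9* and *Ccl6*, CCR1 ligands that mouse myeloid cells make constitutively. *Ccl9* had 468 CPM with β-glucan against 493 with PBS over all kept cells, with its highest level in cluster 0 (758 and 709 CPM). *Ccl6* had 381 and 391 CPM, with its highest level in neutrophil-like cells (772 and 1268 CPM). Their genes are neighbours on chromosome 11 in GRCm39 (*Ccl9* from 83463745 to 83473161, *Ccl6* from 83478708 to 83483913). In thinned cells of the compartment, *Ccl9* was seen in 78.1% and 80.5% of cells with a *Ccl6* UMI and in 47.3% and 49.2% of cells without one. *Ccl24* (eotaxin-2, a CCR3 ligand) and *Ccl8* (a monocyte attractant) were both highest in cluster 0, led by *Cd163* and *C4b*. *Ccl24* stood there at 254 CPM with β-glucan against 286 with PBS, against 91.6 in the next cluster over both libraries, and cluster 0 held 43.4% of its UMIs. *Ccl8* stood there at 114 and 102 CPM, and cluster 0 held 59.5% of its UMIs. *Cxcl16*, a membrane-bound ligand of CXCR6, was highest in macrophage-like cluster 4 at 228 and 291 CPM and lowest in B cell-like cluster 7 at 11.6 CPM over both libraries. *Ccl25*, a thymic and gut CCR9 ligand, showed no such layout and stayed between 13.2 and 30.4 CPM in all 19 clusters. Its annotated gene spans 166 kb and overlaps *Elavl1* on the other strand, and the counting of introns and strand is not given in the sources used here.

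The monocyte attractants *Ccl2* and *Ccl7* and the inflammatory ligands *Ccl3* and *Ccl4* were highest in the basophil/mast-like cluster. *Ccl2* stood there at 668 CPM with β-glucan against 654 with PBS, against 84.6 in the next cluster over both libraries, and was seen in 67.8% and 59.7% of thinned cells. *Ccl7* stood at 628 and 535 CPM, against 39.7 in the next cluster. *Ccl4*, at 563 and 2984 CPM, and *Ccl3*, at 366 and 2334 CPM, came from 6 of 97 β-glucan cells and 13 of 111 PBS cells of that cluster. Of these few cells, 3 and 10 had UMIs of *Mcpt8*, a basophil protease, whereas 1 of 91 and 1 of 98 of the remaining cells did. The mast cell chymase gene *Cma1* was seen in 90 of 91 and 98 of 98 of the remaining cells, which carried *Ccl2* at 679 and 768 CPM and *Ccl7* at 664 and 651 CPM. In PBS, the 13 cells had *Ccl2* at 221 CPM, *Ccl7* at 93.5 CPM and *Ccl6* at 5148 CPM. In β-glucan, the separation was less clear, since 4 of the 6 cells had *Cma1* UMIs and *Ccl2* was at 524 CPM in them. The 18 genes of a dissociation and immediate-early list also had their highest summed level in this cluster (16134 CPM with β-glucan against 18715 with PBS, against 1686 to 8634 and 1752 to 13832 in the others), and the part of tissue digestion in these levels was not tested.

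Neutrophil-like cells had the highest levels of *Cxcr2*, the neutrophil receptor for CXCL1 and CXCL2, and of *Cxcl2* itself. *Cxcr2* was at 262 CPM with β-glucan against 476 with PBS, and this cluster held 85.8% of its UMIs. *Cxcl2* was at 1185 and 2679 CPM, and at 346 and 414 in the next cluster, macrophage-like cluster 6. *Cxcr4*, the CXCL12 receptor that retains neutrophils in bone marrow, also peaked there at 230.5 and 402 CPM, though the myeloid compartment held 82.4% of its UMIs. *Cxcl1* was low everywhere and highest in stromal-like cells at 13.6 and 24.9 CPM. In the compartment, 14 and 25 thinned cells had a *Cxcl1* UMI, and 71.4% and 80.0% of these also had *Cxcl2*, against 5.75% and 7.08% of cells without *Cxcl1*. The same was seen for *Ccl7* in 21.7% and 30.1% of thinned cells with *Ccl2*, against 1.84% and 1.92% of those without. Depth in the neutrophil-like cluster differed between the libraries (medians of 9561 and 4544 UMIs). The 8 neutrophil markers, of which *Ly6g* was seen in 7.14% of cells, summed to 21517 CPM with β-glucan against 40335 with PBS there, and 12 macrophage markers to 12828 and 6376.

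*Ccl17* and *Ccl22*, the CCR4 ligands of dendritic cells, were largely products of APC-like cluster 5. *Ccl17* stood there at 362 CPM with β-glucan against 628 with PBS, and cluster 5 held 80.2% of its UMIs. *Ccl22* stood there at 60.4 and 72.7 CPM, with 87.2% of its UMIs. The genes lie in one group with *Cx3cl1* on chromosome 8 in GRCm39, *Ccl22* from 95471226 to 95478327 and *Ccl17* from 95534358 to 95538664. *Ccl22* was seen in 11.5% and 12.3% of thinned cells with *Ccl17*, against 0.16% and 0.21% of those without. Their receptor gene *Ccr4* had 90.8% of its 109 UMIs in T cell-like cells. *Xcr1*, the receptor of cross-presenting dendritic cells, was confined mostly to APC-like cluster 18, led by *Clec9a*, at 192 and 194 CPM with 75.6% of its UMIs. Its ligand gene *Xcl1* had 95.2% of its 104 UMIs in the cytotoxic lymphocyte-like cluster.

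Stromal-like cells had the highest levels of several homeostatic ligands and of 3 of the 4 atypical receptors. *Cxcl12*, which retains CXCR4-bearing cells, was at 1193 CPM with β-glucan against 1001 with PBS in stromal-like and 632 and 534 in endothelial-like cells, and at 5.33 CPM over both libraries in the next cluster. *Cxcl14* was at 515 and 842 CPM in stromal-like cells. *Ackr3*, a scavenger of CXCL12, was at 199 and 366 CPM there, although the myeloid compartment held 60.2% of its UMIs. *Ccl19* (55.7 CPM), *Ccl11* (46.2), *Ackr4* (23.8) and *Ackr2* (20.5) had their highest level over both libraries in the same cluster. These cells were few (106 and 73) and outside the labelled sort, so they describe cells that passed the sort and not the synovial stroma.

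Several lymphocyte receptors were highest in lymphocyte-like clusters. *Cxcr6* was at 360 CPM with β-glucan against 330.5 with PBS in T cell-like cells, which held 90.3% of its UMIs, and *Ccr6* (64.7 CPM over both libraries), *Ccr4* (36.2) and *Ccr8* (30.7) were highest in the same cluster, led by *Il23r* and *Tnfsf11*. *Cxcr5* (150 and 137 CPM) and *Ccr7* (125 and 121 CPM), which guide cells into follicles and lymph nodes, were highest in B cell-like cluster 7. *Ccl5*, a ligand stored by cytotoxic cells, was at 2107 and 3767 CPM in the cytotoxic lymphocyte-like cluster, with 79.1% of its UMIs. *Cxcr3* was highest in APC-like cluster 18 (63.9 and 42.8 CPM), ahead of the cytotoxic lymphocyte-like cells (31.2 and 30.1 CPM), and the myeloid compartment held 70.6% of its UMIs.

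Several other genes with at least 50 UMIs were low. *Ccl12*, a monocyte attractant, reached 11.4 CPM over both libraries in neutrophil-like cells and *Cxcl3* 10.4 CPM. The neutrophil-like cluster held 13.6% of the 418 *Ccl12* UMIs, and 1 β-glucan cell in it held 38 UMIs. The highest cluster of *Ccl12* also differed between the libraries. *Cx3cl1*, the ligand of CX3CR1, reached 15.5 CPM in endothelial-like cells. *Ccr9* reached 41.9 CPM in B cell-like cluster 16, where 1 PBS cell held 44 of the library's 135 UMIs, and *Ackr1*, a chemokine-binding receptor of endothelium, had 50 UMIs in all. Each of these 2 genes overlaps another gene on the same strand, so their counts are uncertain. *Ccl27a* (386 UMIs), *Ccr3* (159), *Ccl28* (71) and *Ccr10* (50) stayed under 7 CPM in each cluster.

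Some genes were spread over many cells and others were concentrated in few. For 24 genes, the share of UMIs in the 1% of kept cells with the most was computed in each library. It was under 15% in both libraries for 9 genes, among them the receptors *Ccr1*, *Ccr2*, *Cx3cr1* and *Cxcr4* with the ligands *Ccl9*, *Cxcl16*, *Ccl25* and *Ccl6*. It was over 60% in both for *Ccl5*, *Ccl22*, *Cxcl12*, *Ccl17*, *Cxcl14*, *Cxcr6*, *Ccl4* and *Ccl8*. *Ccl17* had 91.1% of its β-glucan UMIs and 76.9% of its PBS UMIs in that 1%, and *Ccl2* had 48.0% and 43.4%. Of the receptors, *Cxcr2* stood close to *Ccl2* at 47.4% and 47.6%, and *Ackr3* at 45.4% and 39.9%. For *Ccl21a*, *Cxcl9*, *Cxcl10* and *Xcl1*, 1 cell held over 50% of the UMIs of a library. *Ccl21a* had 414 UMIs with PBS, of which 411 came from 1 endothelial-like cell, and 2 UMIs with β-glucan. A sum of UMIs of such genes therefore rests on fewer cells than its counting interval shows.

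**Figure D2:**
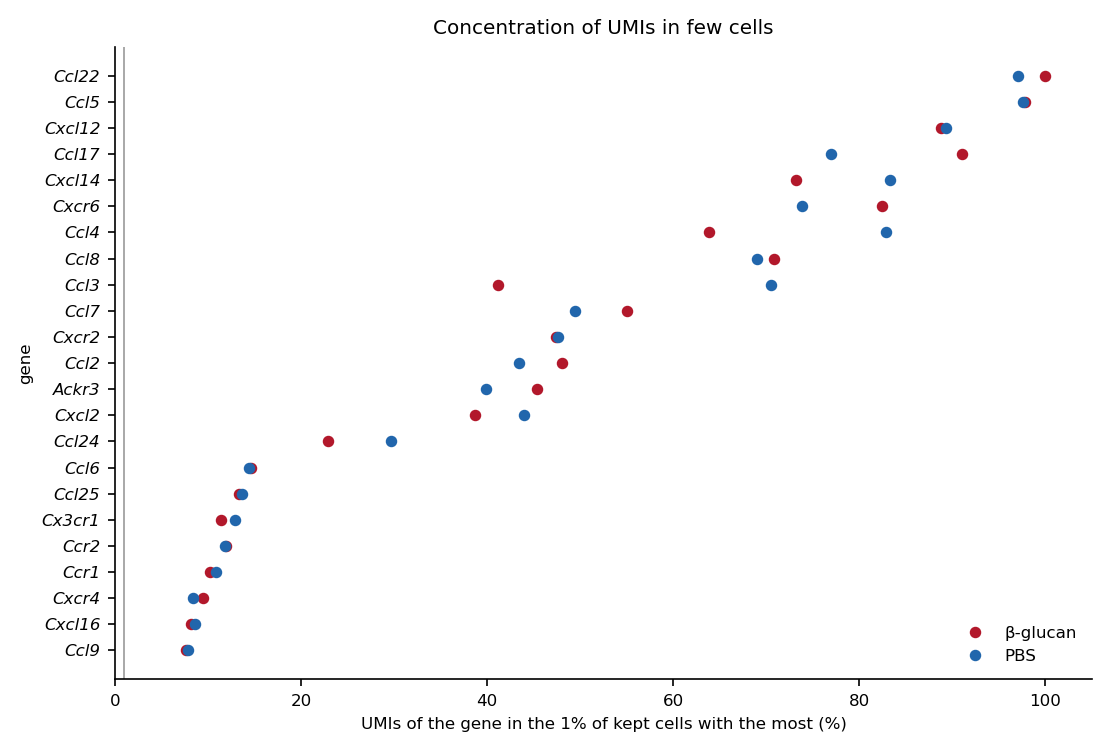
Share of the UMIs of each of 23 genes held by the 1% of kept cells with the most UMIs of it (x axis, percent), for β-glucan (red) and PBS (blue); the grey line marks 1%, the share under an even spread. *Ccl9* stood at 7.6% and 7.8%, and *Ccl22* at 100% and 97.1%.

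β-glucan and PBS were then compared in the main myeloid cell compartment. It was rebuilt here and differs from the compartment of the same name in the study. It includes unnamed cluster 9 and the *Clec9a* cluster 18. Of the 61 genes, 21 had a mean of at least 5 CPM there and 40 did not. A gene was called where one library exceeded the other by a ratio of at least 5 to 4. By that cut, 3 of the 21 were higher with β-glucan (14.3%) and 7 were lower (33.3%), where of all 9809 genes at that level 3.8% were higher and 3.17% were lower. The median log2 ratio was −0.02 over the 21 genes and 0.03 over all genes, and 13 of the 21 lay below 0, against 42.3% of all genes. The interval given with a log2 ratio is an exact 95% interval that covers counting error only.

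Receptors of monocytes and macrophages were near or above the PBS level. *Cx3cr1* had 213 CPM with β-glucan against 165 with PBS (log2 ratio 0.37, 0.33 to 0.40). It was higher in 8 of the 9 clusters that had 100 or more cells per library, with 6 intervals above 0 and 1 below. Over the processing alternatives given at the end, its log2 ratio ran from 0.17 to 0.39, so it did not pass the cut in each. In clusters 6 and 2, where *Cx3cr1* was highest, the levels given above differed less. Those clusters held 8.51% and 11.9% of kept cells with β-glucan against 6.15% and 10.5% with PBS. Cluster 5, where *Cx3cr1* was at 58.9 CPM with β-glucan, held 4.93% and 11.2%. How much of the difference goes with these shares of cells was not tested. *Ccr1* (108 and 91.3 CPM, log2 ratio 0.24) did not pass the cut. *Ccr2* had 314 and 318 CPM, a log2 ratio of −0.02 (−0.05 to 0.01). By cluster it was not level, being higher with β-glucan in 6 of 9 and lower in 3, with 5 intervals above 0 and 2 below. Both receptors of CXCL12 were below the PBS level. *Cxcr4* had 89.4 CPM with β-glucan against 112 with PBS (log2 ratio −0.32, −0.37 to −0.27), just outside the cut, where *Cx3cr1* was the nearest gene inside it, and was below 0 in 9 of 9 clusters. *Ackr3* had 9.67 and 19.3 CPM (log2 ratio −0.998, −1.14 to −0.86) and was lower in 7 of the 7 clusters with at least 20 UMIs.

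Among ligands of at least 5 CPM, the largest differences were those of the CCR4 ligands *Ccl17* and *Ccl22*, followed by *Ccl7* and *Ccl2*. *Ccl17* had 40.9 CPM with β-glucan against 134 with PBS (log2 ratio −1.71, −1.77 to −1.65), and *Ccl22* had 7.09 and 15.5 CPM (log2 ratio −1.13, −1.29 to −0.97). Over all kept cells, *Ccl22* was seen in only 39 β-glucan and 75 PBS cells. Its highest cell held 104 of 463 UMIs with β-glucan and 243 of 997 with PBS. *Ccl2* had 37.8 and 60.8 CPM (log2 ratio −0.69, −0.76 to −0.61), and *Ccl7* had 16.5 and 27.0 CPM (log2 ratio −0.71, −0.82 to −0.60). *Ccl8*, in the same gene group on chromosome 11, had 27.0 and 23.1 CPM, a log2 ratio of 0.22. *Cxcl2* had 71.1 and 96.0 CPM (log2 ratio −0.43, −0.49 to −0.38), and *Cxcl14* 6.76 and 9.63 CPM (log2 ratio −0.51, −0.69 to −0.33). By cluster, *Cxcl14* was lower in 5 of 8 with at least 20 UMIs and higher in 3, with 2 intervals below 0 and 1 above. On the other side, *Ccl3* had 22.5 CPM with β-glucan against 17.0 with PBS (log2 ratio 0.40, 0.28 to 0.51), and *Ccl5* had 7.86 and 5.20 CPM (log2 ratio 0.59, 0.39 to 0.80). Over all kept cells of the sort, the log2 ratios of *Ccl3* (−0.39) and *Ccl5* (−0.11) had the opposite sign. The abundant ligands *Ccl9* (514 and 538 CPM), *Ccl6* (394 and 401 CPM) and *Cxcl16* (156 and 157 CPM) did not pass the cut.

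By role, 2 of the 3 monocyte-attracting ligands tested were lower and 0 higher, and of 6 other inflammatory CC ligands, the group of *Ccl3* to *Ccl6*, *Ccl9* and *Ccl24*, 2 were higher and 0 lower. Of 3 ligands of CCR4 and CCR6 to CCR10, 2 were lower and 0 higher. The 1 CXCR2 ligand (*Cxcl2*), the 1 atypical receptor (*Ackr3*) and 1 of 2 other ligands (*Cxcl14*) were lower. Of 4 monocyte and macrophage receptors, 1 was higher and 0 lower. The 1 lymphocyte and dendritic cell receptor tested (*Cxcr4*) did not pass the cut. These groups are small, and of all 9809 genes 3.8% were higher and 3.17% lower. The CXCR3 ligands *Cxcl9* and *Cxcl10* and the granulocyte receptors were below the minimum of 5 CPM. Among genes below it, *Cxcl13*, which draws B cells through CXCR5, had 5.41 CPM with β-glucan against 0.892 with PBS. However, its 362 β-glucan UMIs over all kept cells came from 27 cells, 1 of which held 142. *Cxcl9* had 4.90 and 1.09 CPM, with 194 of its 323 β-glucan UMIs over all kept cells in 1 cell. *Cxcl1* had 1.61 and 3.37 CPM and *Cxcl3* 1.20 and 2.07 CPM, on the same side as *Cxcl2* of the same gene group.

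**Figure D3:**
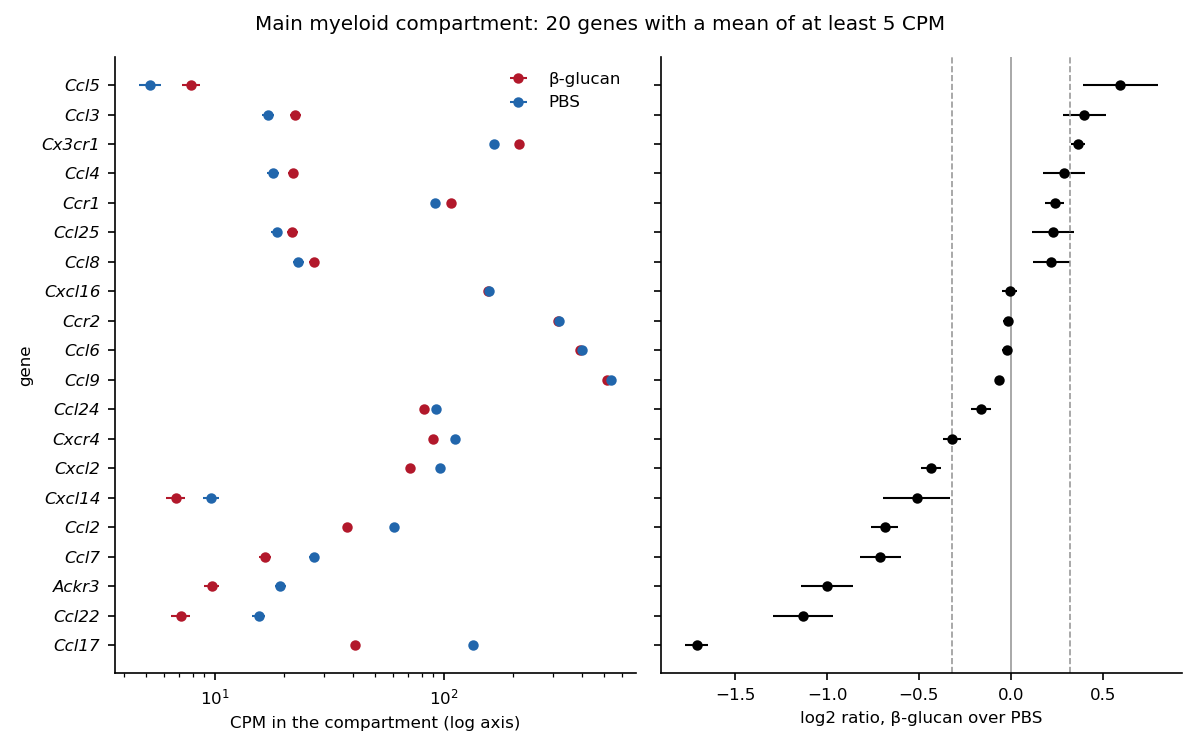
Left, CPM of 20 genes in the myeloid compartment of the β-glucan (red) and PBS (blue) libraries on a log axis; right, their log2 ratio, with dashed lines at the cut of 5 to 4. Bars are exact 95% intervals for counting error only; *Ccl17* stood at 40.9 against 134 CPM and *Ccl5* at 7.86 against 5.20.

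These differences were not the same in every cluster. *Ccl2* was lower with β-glucan in 7 of 9 clusters, with 7 intervals below 0, and *Ccl7* in 8 of 9, with 6 intervals below 0. Among clusters with at least 100 UMIs of the gene, the largest differences of *Ccl2* were in macrophage-like cluster 1 (log2 ratio −1.61), in unnamed cluster 9 (−1.68) and, in the other direction, in cluster 6 (1.04). Those of *Ccl7* were in clusters 1 (−1.44) and 5 (−2.65) and, in the other direction, in cluster 6 (1.16). *Cxcl2* was lower in clusters 0 (−1.40), 2 (−2.11), 5 (−1.55), 9 (−1.23) and 10 (−4.91), and higher in clusters 3 (0.67) and 4 (0.59). *Ccl3* was higher in clusters 2 to 6, with log2 ratios from 0.32 to 1.07, and lower in clusters 0 (−0.53), 1 (−0.62) and 9 (−0.85). *Ccl4* was higher in clusters 2 to 5, from 0.68 to 1.10, and lower in neutrophil-like cells (−0.86). *Cxcr4* and *Ackr3* were below 0 in each compartment cluster shown. In cluster 9, which held 202 CPM of summed neutrophil markers with β-glucan and 4804 with PBS, the part of neutrophil RNA in the values was not tested.

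**Figure D4:**
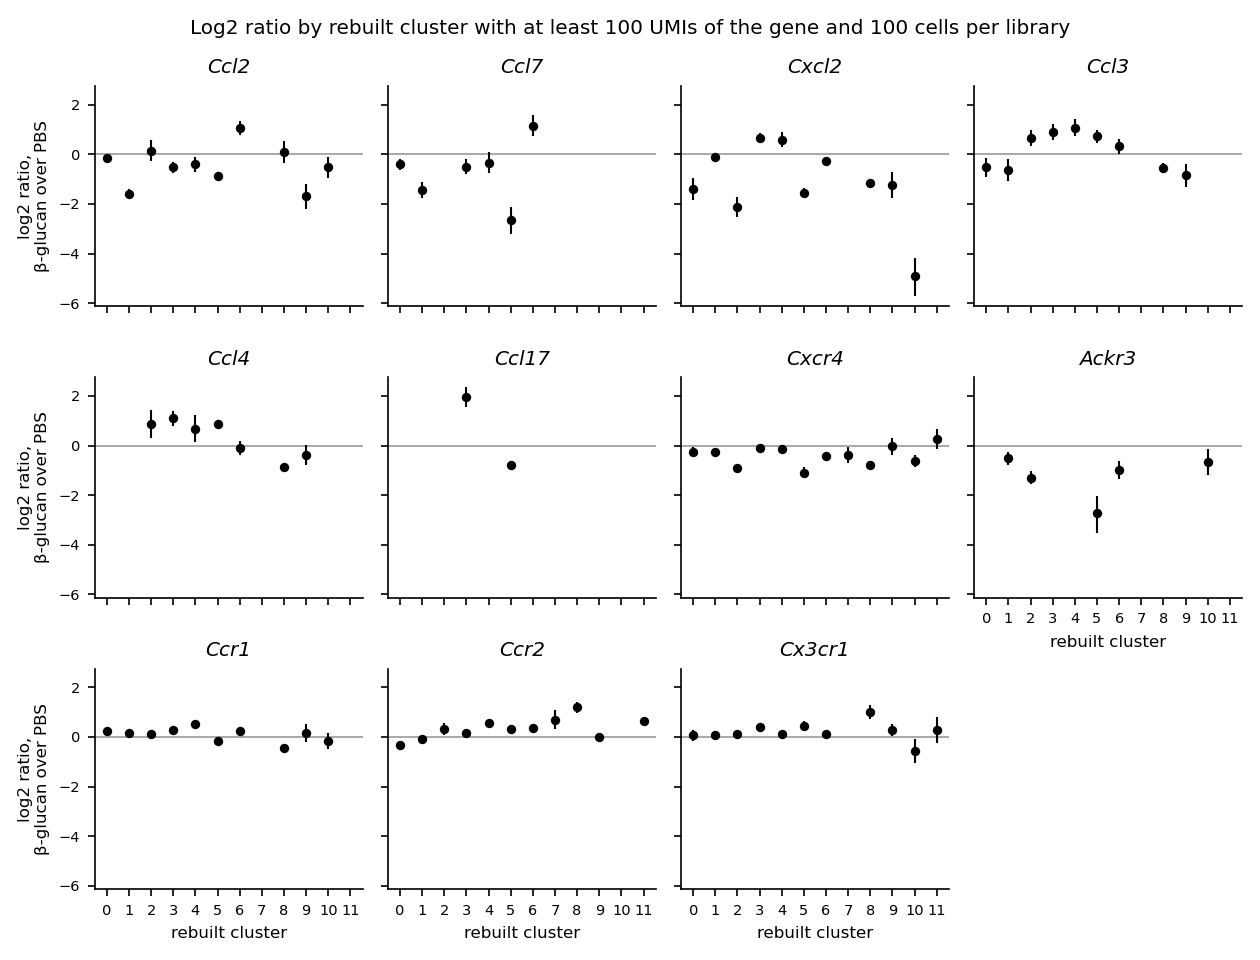
Log2 ratio of β-glucan over PBS (y axis) for 11 genes in each rebuilt cluster (x axis) with at least 100 UMIs of the gene and at least 100 cells in each library; bars are exact 95% intervals for counting error only. *Ccl2*, *Ccl7*, *Cxcl2* and *Ccl3* lay on both sides of 0, whereas *Cxcr4* was below 0 in 9 of the 9 compartment clusters.

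Cluster 5 carried much of the lower *Ccl17* level, through its cell number and through a group of PBS cells. It held 281 cells with β-glucan and 509 with PBS, and *Ccl17* UMIs were seen in 35.6% and 39.5% of them. A finer clustering (resolution 1) set apart 150 cells, 145 of them from cluster 5, and all 150 came from the PBS library. They were led by *Arg1* (1965 CPM, against 5.21 in the β-glucan cells of cluster 5), an arginase of alternatively activated macrophages, with *Mmp12* (502 against 50.9) and *Retnla* (7976 against 1810). A cluster from 1 library may reflect that library, or 1 of its mice, rather than a cell type. *Ccl17* was at 992 CPM in these cells, 455 in the other 364 PBS cells of cluster 5 and 362 in the 281 β-glucan cells. *Ccl22* had the reverse order of the PBS cells, 17.3 CPM in the set-apart cells, 97.4 in the others and 60.4 with β-glucan. *Ccl2* was at 219, 44.4 and 54.0 CPM, *Ccl7* at 70.9, 16.3 and 5.37, *Cxcl2* at 228, 110 and 50.4, and *Ackr3* at 56.4, 2.22 and 2.93. So within cluster 5, *Ackr3* and *Ccl2* differed between the libraries mainly by these cells. *Cxcl2*, *Ccl7* and *Cxcr4* (99.4, 52.9 and 31.7 CPM) were lower with β-glucan against both PBS groups. For *Ccl7*, the share of cells with a UMI was 22% in the set-apart cells, 4.95% in the other PBS cells and 5.34% with β-glucan. Of the 418 *Ccl7* UMIs of PBS cells of cluster 5, 1 cell held 93, so this difference rests on few cells. *Cxcl14* had 192 UMIs in the other PBS cells, of which 3.57% had a UMI, 4 in the set-apart cells and 15 with β-glucan. The whole PBS compartment had 583 *Cxcl14* UMIs, so its difference also rests on few cells. *Ccr2* was at 287 CPM in the set-apart cells, 770.5 in the other PBS cells and 785 with β-glucan.

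Without the 150 cells, *Ccl17* in the compartment kept a log2 ratio of −0.86, *Ccl2* of −0.40, *Ccl7* of −0.54, *Ackr3* of −0.79 and *Cx3cr1* of 0.29, which is under the cut. *Cxcl2* then had −0.29, also under the cut. Without the whole of cluster 5, *Ccl17* had a log2 ratio of 0.24 and *Ccl22* of 1.02, the opposite sign.

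**Figure D5:**
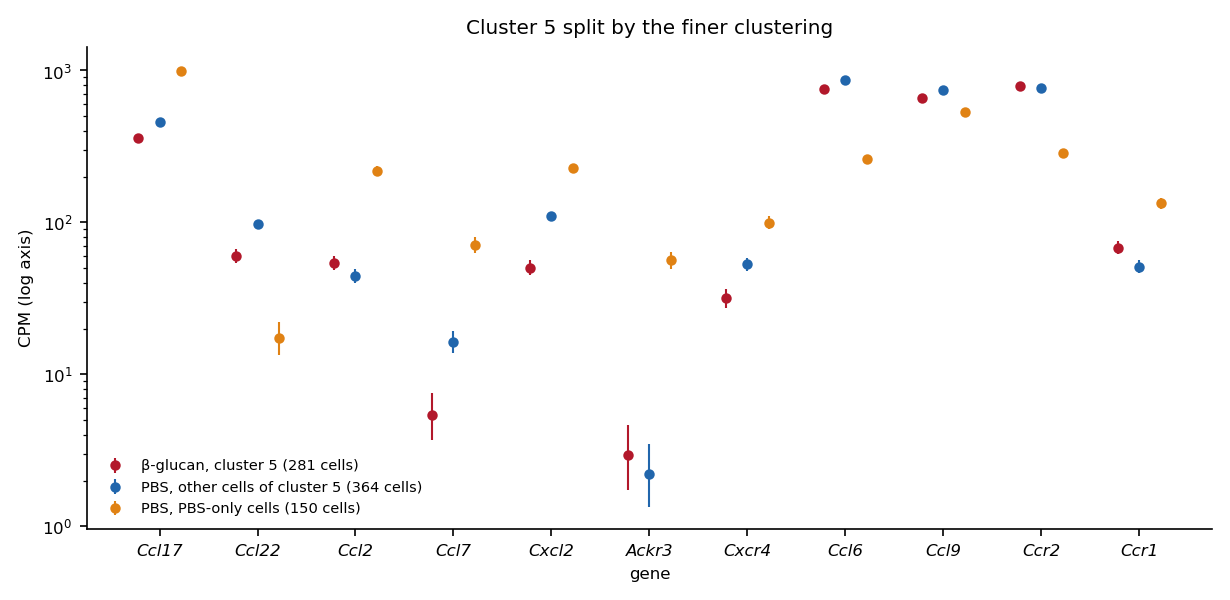
CPM (log axis) of 11 genes in the 281 β-glucan cells of APC-like cluster 5 (red), the other 364 PBS cells of it (blue) and the 150 PBS-only cells set apart by the finer clustering (orange, 145 of them from cluster 5); bars are exact 95% intervals for counting error only. *Ccl17*, *Ccl2*, *Ccl7*, *Cxcl2* and *Ackr3* were highest and *Ccl22*, *Ccl6* and *Ccr2* lowest in the orange cells.

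Genes that act with chemokines were read from lists of their own, beside all 9809 genes tested, of which 3.8% were higher and 3.17% lower. Of 28 genes that signal from chemokine receptors, 28 were tested and 0 passed the cut, at log2 ratios from −0.31 (*Jak2*, a kinase) to 0.31 (*Rgs2*, a regulator of G protein signalling) around a median of 0.02. Of 7 relatives outside the rule, 5 were tested and 1 was lower, the cytokine gene *Mif* (112 CPM with β-glucan against 156 with PBS, log2 ratio −0.48), while *Pf4* was at 2371 and 2111 CPM. Of 6 proteases that cut chemokines, 5 were tested and 2 were lower, *Mmp12* (7.58 and 45.4 CPM) and *Mmp9* (0.766 and 10.7 CPM). Both rested on few cells. The 150 PBS-only cells held 1969 *Mmp12* UMIs, where the PBS compartment had 2746. *Mmp9*, also on the list of neutrophil markers, was seen over both libraries in 1.23% of cells of cluster 3 (24.8 CPM) and 0.637% of cluster 1 (10.9 CPM). Of 12 NF-κB response genes tested, 2 were lower (*Nfkbia*, 135 and 209 CPM, and *Tnf*, 26.1 and 34.3 CPM) and 0 higher, with a median log2 ratio of −0.24. Of 5 interferon response genes tested, 3 were lower, among them *Gbp2* at 8.67 and 21.8 CPM, and 0 higher. Over the whole compartment, the dissociation and immediate-early list was also lower with β-glucan. Of its 18 genes, 8 were lower and 0 higher (median log2 ratio −0.19), and 5 lay above 0. Its summed level was 3037 CPM with β-glucan against 3519 with PBS. By cluster, it was higher with β-glucan in clusters 3 (3866 against 3359 CPM), 4 (2765 against 2555) and 18 (3331 against 3278). In the other compartment clusters it was lower. *Nfkbia* is on this list and on the NF-κB list, and counts as lower in each. How much of the lower *Ccl2*, *Ccl7* and *Cxcl2* goes with this list was not tested. Most of these genes are short, and the median log2 ratio was −0.11 over the 16 tested chemokine and receptor genes under 10 kb, −0.06 over all 1846 tested genes under 10 kb and 0.14 over 1372 genes of at least 100 kb.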

How the data were processed

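The deposited counts, which the authors obtained from Cell Ranger 7.0.0, are UMIs per gene and barcode on GRCm39 with Ensembl genes, without normalization (the labels' processing notes also name mm10). Intron counting and strand are not given in the sources used here. The libraries held 81611849 (β-glucan) and 73874602 (PBS) UMIs.

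Clusters came from sctransform 0.4.2 and Seurat 5.3.0, run in R 4.3.3 (30 principal components, resolution 0.7). UMIs were summed by cluster and library in Python 3.11.15 with scipy 1.17.1. Sums have exact Poisson intervals, shares Clopper-Pearson intervals and ratios conditional binomial intervals, all for counting error only. The ratio method was tested on simulated Poisson sums. These held the same counting error and no spread between cells, mice or libraries, so the test checks the calculation only. Genes were called at 1.25-fold with a mean of at least 5 CPM. The genes and lists were chosen with earlier results of these data known. Values were given for the 30 most abundant genes, those of at least 100 CPM in a cluster, those called and *Cx3cr1*, and other genes were named for their highest cluster or few cells after their values were seen. For 1 gene, counted in the totals, values are not reported here. Cluster ratios needed 100 UMIs and 100 cells per library. Alternatives changed the cell filter, scaling (edgeR 4.0.16 for TMM), weights, thinning (3000 UMIs), doublets and clustering.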

Additional observations from a re-analysis of the deposited data

Results flagged for a closer look

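In 6 genes the log2 ratio of β-glucan over PBS was at least 1.5-fold up in 1 cluster of the myeloid compartment and at least 1.5-fold down in another, with counting intervals off 0. Only the chemokine and receptor genes were searched by this rule, so the share of all genes that would meet it is not known. The difference between the clusters was not tested, since each is read from 1 library per group.

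*Ccl2* had a log2 ratio of 1.04 in cluster 6 and −1.68 in cluster 9. In cluster 6 the highest β-glucan cell held 153 of 483 UMIs, the ratio without the highest cell of each library was 0.79, and the share of cells with a UMI was 13.6% with β-glucan and 15.7% with PBS. *Ccl7* had 1.16 in cluster 6 and −2.65 in cluster 5, where 15 of 281 β-glucan cells and 51 of 509 PBS cells had a UMI. *Cxcl2* had 0.67 in cluster 3 and −4.91 in cluster 10, where 1 PBS cell held 327 of 506 UMIs and 8 of 173 and 28 of 152 cells had a UMI. *Ccl3* had 1.07 in cluster 4, where 22.2% and 13.7% of cells had a UMI, and −0.85 in cluster 9. *Ccl17* had 1.94 in cluster 3, where 1 β-glucan cell held 122 of 295 UMIs and 20 and 18 cells had a UMI, and −0.79 in cluster 5. *Ccl12*, a monocyte attractant in the same gene group as *Ccl2* on chromosome 11, had 1.35 in cluster 3 (86 and 30 UMIs) and −0.59 in cluster 0 (61 and 73 UMIs).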

How the results depend on the processing

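Over 17 alternatives, 333 of 355 log2 ratios of the 21 genes in the compartment had the sign given in the report, and 11 of the 21 genes kept it in each, among them *Ackr3*, *Ccl2*, *Ccl7*, *Cxcl2*, *Cxcr4* and *Cx3cr1*. Leaving out cluster 5, the PBS-only cells or the cells highest for each gene was chosen after seeing the data. The number of genes higher with β-glucan, 3, became 1 with equal weight per cell, with a minimum of 20 CPM or at 1.5-fold, and 5 with a minimum of 1 CPM. The number lower, 7, became 4 without cluster 5, 11 with a minimum of 1 CPM and 4 with a minimum of 20 CPM. The other alternatives gave 2 to 4 higher and 5 to 9 lower. Of the called genes, 5 changed sign, namely *Ccl17* (0.24) and *Ccl22* (1.02) without cluster 5, *Ccl5* (−0.12 over all barcodes, −0.11 over all cells of the sort), *Ccl3* (−0.36 and −0.39) and *Cxcl14* (0.00456 without the highest 1% of cells of each library). Of the genes that were not called, the ratio crossed 0 for *Ccl4* (−0.34 to 1.05), *Ccl6* (−0.07 to 0.12), *Ccl8* (−0.11 to 0.28), *Ccr2* (−0.05 to 0.20) and *Cxcl16* (−0.14 to 0.01). Leaving out the highest 1% of cells gave no ratio for *Ccl22* and *Ccl5*, whose β-glucan UMIs were all in those cells. The cause was not tested beyond what leaving out the cells shows. No paired analysis was possible because each group has 1 library. Of levels in the highest cluster, 6 of 30 left their counting interval with these genes kept in the principal components and 23 of 30 with equal weight per cell. Depth limits clusters with under 100 cells, genes under 5 CPM and any call per mouse.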

Other observations

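The proliferating cluster, left outside the myeloid compartment although it carried APC markers, also differed in *Ccl17*. Its 48 β-glucan cells had 44 UMIs (32.2 CPM, 18.8% of cells with a UMI) and its 67 PBS cells 1510 UMIs (636 CPM, 43.3% of cells). This cluster is under the minimum of 100 cells per library. In T cell-like cells *Ccr2* had a log2 ratio of 0.63, whereas *Cxcr6* had 0.12 and *Ccr6* 0.40. In B cell-like cluster 7 *Cxcr5* had 0.12, *Ccr7* 0.05 and *Ccr6* 0.03. In stromal-like cells, 106 and 73 in number, *Cxcl10*, an interferon-induced ligand of CXCR3, had 3 UMIs with β-glucan against 270 with PBS, all 270 from 1 cell.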
